A study of Mus musculus with 6 samples.

Results

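This account concerns 10 genes of the fibroblast growth factor (FGF) and ERK pathway in mouse embryonic stem cells: the ligand gene Fgf4 and 9 genes known as feedback regulators or transcriptional targets of ERK, namely Dusp6, Dusp4, Spry2, Spry4, Spred1, Etv4, Etv5, Egr1 and Phlda1. They are 10 of 49377 named genes, matched by gene name, and each has a single entry in the deposited tables. They were chosen by name with their FPKM difference between the VD3 and untreated pools already known, so that contrast is a description of them and supports nothing. The other comparisons each share a pool with it, so the choice bears on them too. The cells were blastocyst-derived embryonic stem cells of strain C57BL/6J and genotype Mll1fl/fl; Cre-ER TM, that is, with floxed Mll1 alleles and a tamoxifen-responsive Cre, a genotype that all groups share. The first group received 100 µM MM-401, which blocks the histone methyltransferase MLL1, together with 1 µM of VD3 (1α,25-dihydroxyvitamin D3, the hormonal form of vitamin D) for 5 days. The second received 1 µM VD3 alone for 5 days, and the third was untreated, with no culture time given. All were kept on feeder layers of mouse embryonic fibroblasts, in medium with leukemia inhibitory factor and either 15% fetal calf serum or 20% serum replacement, and the labels do not say which medium each library had. No group with MM-401 alone was analysed here, so the inhibitor's own difference cannot be told apart from one that needs VD3.

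Each group has 2 libraries, labelled as biological duplicates, but the deposited tables hold 1 pooled column per group. No spread between libraries is available, and no test was made. The untreated and VD3 plus MM-401 columns were matched to their groups through part of their names, which the labels explain only in that part, and every comparison that uses them rests on this match. Levels are FPKM, fragments per transcript length and sequencing depth, with the authors' lower and upper confidence bounds, whose level is not given. The pools held 73292511 estimated counts with VD3 plus MM-401, 73383193 with VD3 and 62081406 in untreated cells, and the 10 genes took 0.163%, 0.178% and 0.149% of them in that order. All 7 pluripotency markers were above 1 FPKM in every pool, with a summed level of 3532 FPKM with VD3 plus MM-401, 3476 with VD3 and 2224 in untreated cells. Pou5f1 was the largest part of that sum, at 1832.5, 2052.6 and 1114.1 FPKM. The median log2 difference of the 7 from untreated was 0.36 with VD3 and 0.41 with both agents, next to 0.36 and 0.27 for all genes. Of 18 fibroblast markers with their own values, 8, 10 and 10 reached 1 FPKM in the same order, and the sum was 406.3, 497 and 314 FPKM. Vim, Fn1, Tagln and Thy1 made up most of that sum, and Vim, which embryonic stem cells can also express, was at 165.14, 159.17 and 50.385 FPKM. The other 14, which include the collagen genes, summed to 14.28, 18.72 and 15.58 FPKM, and Lum was at 0 in every pool. Feeder cells express several ERK targets too, and their part in the values below was not tested. In pooled RNA, fewer cells of a type and less RNA per cell cannot be told apart.

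In embryonic stem cells FGF4 is the main secreted FGF. It binds FGF receptors, which activate RAS, the RAF and MEK kinases, and ERK, and this pathway prepares the cells to leave the naive pluripotent state and, in the blastocyst, favours primitive endoderm. ERK induces its own inhibitors: DUSP phosphatases remove the activating phosphates from ERK, and Sprouty and SPRED proteins act upstream, on the path to RAS and RAF. For this reason the transcripts of these inhibitors are commonly read as a record of recent ERK activity. Such a reading needs a measure of ERK itself, and these tables hold RNA only.

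Fgf4 (chromosome 7, 144847367 to 144865243, plus strand; GENCODE vM21, GRCm38), the ligand gene, was among the highest of the 10. It stood at 116.66 FPKM with VD3 plus MM-401 (authors' bounds 76.573 to 156.74), 138.78 with VD3 (91.54 to 186.01) and 105.03 in untreated cells (69.49 to 140.58). The bounds overlapped for each pair of pools, and the VD3 pool was the highest. Its log2 difference, computed on FPKM + 1 here and below, was 0.40 ± 0.35 for VD3 against untreated, where the error is the standard deviation (SD) that the authors' count variance implies. The median of all genes was 0.36 in that comparison, so Fgf4 was within 0.04 of the typical gene. Pou5f1 and Sox2, whose products bind an enhancer of Fgf4, were at 1832.5, 2052.6 and 1114.1 FPKM, and at 195.32, 162.58 and 156.51 FPKM, in VD3 plus MM-401, VD3 and untreated cells. Pou5f1 was thus highest in the VD3 pool, as Fgf4 was, and Sox2 was highest with both agents. The bounds of Pou5f1 and of Sox2 overlapped between pools, and a link of their levels to Fgf4 was not tested.

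The dual-specificity phosphatases differed in level by far more than the pools did. Dusp6 (chromosome 10, 99263231 to 99267489, plus strand), the cytoplasmic ERK phosphatase, was at 132.57 FPKM with VD3 plus MM-401 (83.388 to 181.76), 149.42 with VD3 (88.936 to 209.91) and 85.471 in untreated cells (50.923 to 120.02). Dusp4 (chromosome 8, 34807297 to 34819894, plus strand), a nuclear phosphatase of the same family, was at 4.4689 FPKM (2.7301 to 6.2077), 5.2704 (3.3417 to 7.1991) and 2.631 (1.5728 to 3.6891) in the same order. Both were lowest in untreated cells and highest with VD3, and the bounds of each overlapped between pools. The FPKM of Dusp6 was 29.7, 28.4 and 32.5 times that of Dusp4 in VD3 plus MM-401, VD3 and untreated cells, so the ratio between them was similar in all pools. For Dusp4 the VD3 level was 2 times the untreated one as a plain ratio of FPKM. On the scale of FPKM + 1, which understates low genes, the log2 difference was 0.79 ± 0.38, next to 0.80 ± 0.34 for Dusp6.

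The Sprouty and SPRED genes differed in which pool was highest, with bounds that overlapped between pools for each gene. Spry2 (chromosome 14, 105891947 to 105896819, minus strand) was at 113.89 FPKM with VD3 plus MM-401 (75.772 to 152), 99.28 with VD3 (66.297 to 132.26) and 76.691 in untreated cells (51.289 to 102.09). Spry4 (chromosome 18, 38586247 to 38601415, minus strand) was at 36.121 (24.004 to 48.239), 47.581 (31.834 to 63.328) and 33.087 FPKM (22.232 to 43.941). Spry2 was highest with both agents and Spry4 with VD3 alone. The FPKM of Spry2 was 3.15 times that of Spry4 with VD3 plus MM-401, 2.09 times with VD3 and 2.32 times in untreated cells. Spred1 (chromosome 2, 117121374 to 117182279, plus strand), whose product inhibits RAS signalling together with neurofibromin, was at 22.004 FPKM with VD3 plus MM-401 (14.868 to 29.14), 15.58 with VD3 (10.417 to 20.742) and 26.138 in untreated cells (17.119 to 35.157). It was the 1 gene of the 10 with a lower level in both treated pools than in untreated cells, and the bounds overlapped there too.

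Etv4 and Etv5 encode ETS transcription factors of the PEA3 group, which ERK signalling induces. Etv4 (chromosome 11, 101769742 to 101785371, minus strand) had the highest level of the 10 in every pool, with 255.49 FPKM with VD3 plus MM-401 (105.92 to 405.05), 276.76 with VD3 (115.43 to 438.1) and 171.56 in untreated cells (71.253 to 271.88). Etv5 (chromosome 16, 22381309 to 22439719, minus strand) was at 85.904 (34.943 to 136.87), 108.11 (34.325 to 181.9) and 66.27 FPKM (28.953 to 103.59). Both were highest with VD3 and lowest in untreated cells, with wide, overlapping bounds. The ratio of Etv4 to Etv5 was 2.97, 2.56 and 2.59. The deposited locus of Etv4 also spans Dhx8, an RNA helicase gene on the other strand, which has its own value there of 71.2, 90.711 and 59.187 FPKM. How the reads of this locus were divided between both genes is not given in the sources used here, and the count SD of Etv4, 24.64%, 22.97% and 23.07% of the count, was the widest of the 10.

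Egr1 and Phlda1 are targets that respond quickly to ERK. Egr1 (chromosome 18, 34859823 to 34864984, plus strand), an immediate early zinc finger factor, was at 6.0474 FPKM with VD3 plus MM-401 (3.8624 to 8.2325), 7.5412 with VD3 (4.8902 to 10.192) and 3.7735 in untreated cells (2.3343 to 5.2128). Phlda1 (chromosome 10, 111506286 to 111508645, plus strand), a pleckstrin homology-like protein, was at 25.353 (13.289 to 37.417), 19.894 (10.886 to 28.902) and 9.2911 FPKM (5.3691 to 13.213). Egr1 was highest with VD3, while Phlda1 was highest with both agents and lowest in untreated cells. For Phlda1 the lower bound with VD3 plus MM-401 lay above the untreated upper bound, by 0.0755 FPKM. It was the 1 such case, and the bounds overlapped in the other 29 of 30 pairs of pools over the 10 genes. Among all genes of at least 5 FPKM in the higher pool, bounds apart and higher were rare too. Their share was 0.99% for VD3 against untreated, 4.29% for both agents against untreated and 0.858% for both agents against VD3. The share with bounds apart and lower was not computed, so nothing is read from the overlaps. Behind the FPKM values stand 1219.7, 1543 and 765.32 estimated counts for Egr1 and 2794.4, 2231.1 and 1097.9 for Phlda1, against 9969.8 to 28579 for Fgf4, Dusp6, Spry2, Spry4, Etv4 and Etv5.

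**Figure D1:**
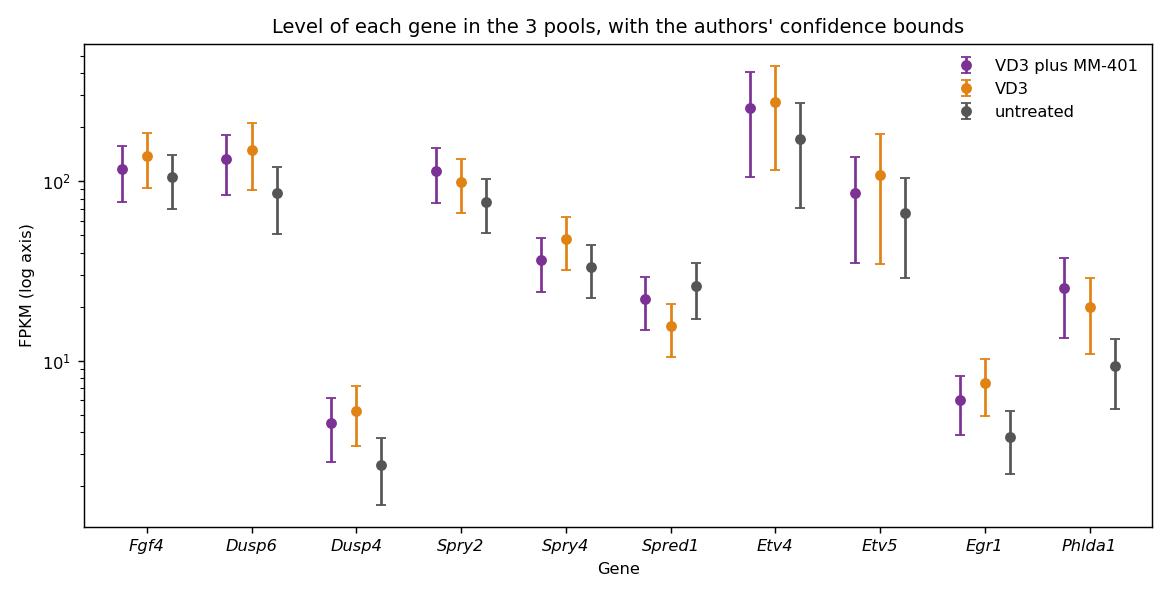
Level of each gene in FPKM (log axis) in the VD3 plus MM-401, VD3 and untreated pools, each point 1 pooled column and each bar the authors' confidence bounds. Etv4 is the highest gene and Dusp4 the lowest in every pool, and only the bars of Phlda1 with both agents (from 13.289) and in untreated cells (to 13.213) do not overlap.

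Within a pool, Etv4 came first, and Egr1 and Dusp4 came last. In untreated cells, Fgf4, Dusp6, Spry2, Etv5, Spry4, Spred1 and Phlda1 followed Etv4 in that order. Neighbours in this order had bounds apart only between Spred1 and Phlda1 and between Phlda1 and Egr1. With VD3, Dusp6 stood above Fgf4, Etv5 above Spry2 and Phlda1 above Spred1, and neighbours with bounds apart were Spry2 and Spry4, Spry4 and Phlda1, and Spred1 and Egr1. With both agents, where Dusp6 stood above Fgf4 and Phlda1 above Spred1, it was only Spred1 and Egr1. Among all genes of at least 1 FPKM, Dusp4 was at percentile 25, 28.1 and 15.3 and Etv4 at 94.1, 95.5 and 94.2 with VD3 plus MM-401, with VD3 and in untreated cells.

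Promoter windows from RefSeq (GRCm38.p6), 250 bases before to 50 after the start of a transcript, were searched for 5 of the 10 genes, as 6 windows. None was found for Dusp4, Etv4 and Phlda1, and the chromosome of Spry4 and Egr1 was left out of the search. The 3 windows shown, of Dusp6, Etv5 and Spred1, were picked after the search because they hold at least 1 of 2 motifs, and the other 3 hold neither. Capitals mark these motifs, searched on both strands: CGGAAG, a core of ETS factor sites, and TGAATG, the shared start of the octamers TGAATGAA and TGAATGGA that the repressor Capicua binds. Capicua is known to repress Etv4 and Etv5 and to be inactivated by ERK signalling. The Dusp6 window is at chr10:99262981-99263280 on the plus strand, the Etv5 window, the downstream one of its pair, at chr16:22438319-22438618 on the minus strand, and the Spred1 window at chr2:117120821-117121120 on the plus strand.
Dusp6: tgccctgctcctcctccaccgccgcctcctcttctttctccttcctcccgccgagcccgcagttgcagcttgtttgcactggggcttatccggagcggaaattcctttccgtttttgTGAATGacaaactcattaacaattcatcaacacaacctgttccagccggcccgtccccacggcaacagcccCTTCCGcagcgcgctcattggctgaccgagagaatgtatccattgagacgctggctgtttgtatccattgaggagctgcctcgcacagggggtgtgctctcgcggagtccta
Etv5: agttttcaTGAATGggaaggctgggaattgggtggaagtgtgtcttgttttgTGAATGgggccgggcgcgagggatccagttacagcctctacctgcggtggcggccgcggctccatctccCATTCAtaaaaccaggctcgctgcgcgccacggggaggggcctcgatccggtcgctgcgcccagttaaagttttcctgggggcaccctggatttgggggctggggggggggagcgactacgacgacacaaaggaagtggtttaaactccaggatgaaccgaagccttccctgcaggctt
Spred1: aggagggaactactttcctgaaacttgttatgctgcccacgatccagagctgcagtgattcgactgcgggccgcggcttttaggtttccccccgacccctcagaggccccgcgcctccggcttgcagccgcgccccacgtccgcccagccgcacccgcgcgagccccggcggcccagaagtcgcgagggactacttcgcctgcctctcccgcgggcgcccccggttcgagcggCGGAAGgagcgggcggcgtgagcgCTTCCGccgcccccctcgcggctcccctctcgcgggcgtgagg

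The Dusp6 window held TGAATG once, 133 bases before the start, and CGGAAG once, 62 bases before it. The downstream Etv5 window held TGAATG 3 times, 242, 198 and 129 bases before the start, and no CGGAAG. The Spred1 window held CGGAAG 2 times, 17 bases before and 7 after the start, and no TGAATG. Neither motif was in the upstream Etv5 window or in those of Fgf4 and Spry2. Of all 32851 windows of the table, 16.9% held CGGAAG, 12.7% held TGAATG, 0.17% held TGAATG at least 3 times and 4.15% held CGGAAG at least 2 times. The full Capicua octamers were in none of the 6 windows, and 1.3% (TGAATGAA) and 1.21% (TGAATGGA) of all windows held them. AGGTCA, a nuclear receptor half-site, was in the Spry2 window once, and 16.3% of all windows held it. These letters describe the windows and are no evidence of binding, and enhancers lie outside them.

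VD3 against untreated cells addresses how transcript levels stood after 5 days of the hormone. Among the 10 genes, Phlda1 had the largest log2 difference, 1.02 ± 0.36, followed by Egr1 at 0.84 ± 0.37, Dusp6, Dusp4, Etv5 at 0.70 ± 0.34 and Etv4 at 0.69 ± 0.47. These 6 were at least 1.5-fold higher, as were 28.3% of the 10911 genes that reached 5 FPKM in the higher pool. Spry4 was at 0.51 ± 0.34, and Fgf4 and Spry2, at 0.40 and 0.37, stood at the median of all genes. Spred1, at -0.71 ± 0.34, was the 1 gene at least 1.5-fold lower, against 13.9% of all genes. Phlda1 alone was 2-fold higher (3.54% of all genes), and 0 of the 10 had bounds apart in that direction (0.99%). All 10 differences were larger than their SD, which held for 59.8% of all genes. The median of the 10 was 0.69 and that of all genes 0.36. Since the genes were chosen with this contrast known, nothing is read from these counts.

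**Figure D2:**
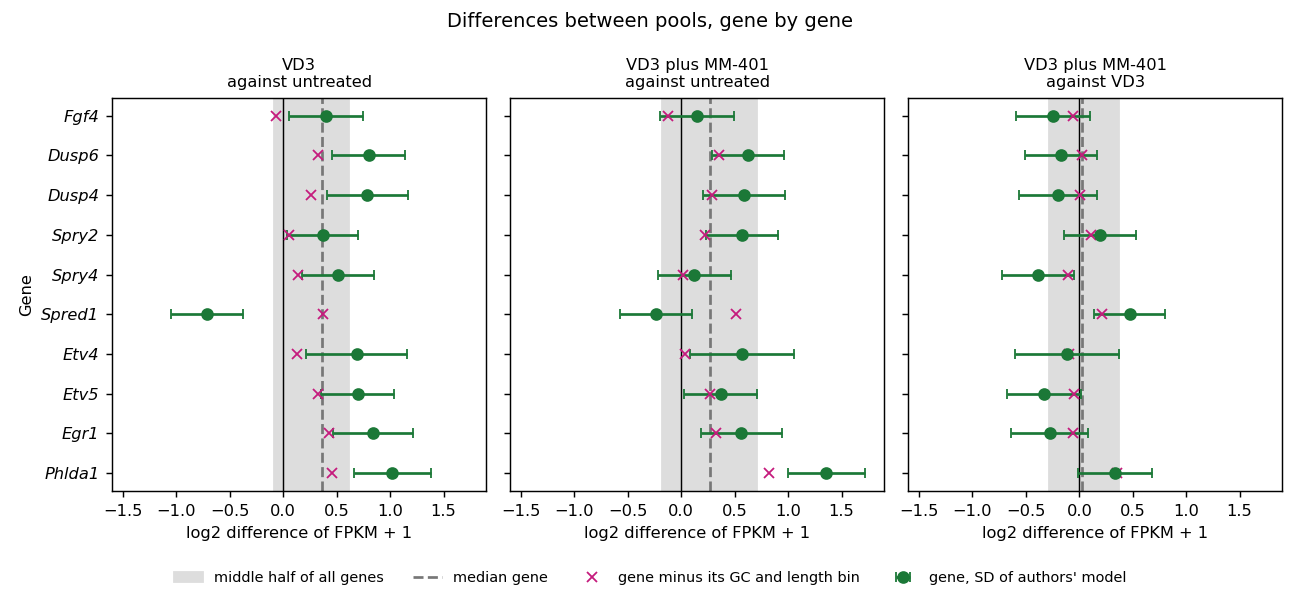
Log2 difference of FPKM + 1 of each gene in the 3 comparisons, first pool minus second, with the SD implied by the authors' count variance as bars. The band spans percentile 25 to percentile 75 of all genes tested, the dashed line is their median, and crosses give each gene minus the median of its GC and length bin; Spred1 lies at -0.71 in the first panel and its cross at 0.38.

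VD3 plus MM-401 against untreated cells shows both agents together and shares the untreated pool with the comparison above. Phlda1 was again the furthest, at 1.36 ± 0.36, and Dusp6 was at 0.63 ± 0.34. Dusp4, at 0.59 ± 0.38, was under 5 FPKM in both pools and left out of the counts. Of the 9 others, 2 were at least 1.5-fold higher, Phlda1 and Dusp6, against 31.4% of 10966 genes, and 0 were lower, against 12.1%. That share is near the background and is no result about these genes. Etv4 at 0.57, Spry2 at 0.56 and Egr1 at 0.56 lay just under the 1.5-fold threshold. Phlda1 was the 1 gene 2-fold higher (13.4% of all genes) and the 1 with bounds apart (4.29%). The differences of Etv5 (0.37 ± 0.34), Fgf4 (0.15 ± 0.35), Spry4 (0.12 ± 0.34) and Spred1 (-0.24 ± 0.335) were smaller, and the last 3 of them were within their SD. Of the 9 genes, 6 had a difference larger than the SD, against 52.2% of all genes. This SD is that of the counts and does not reflect the wide FPKM bounds of Etv5. The median of the 9 was 0.56 and that of all genes 0.27.

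Setting both agents against VD3 alone addresses what the inhibitor adds, and this comparison shares a pool with each of the others. Levels of 7 of the 10 genes were lower with both agents and those of Spry2, Spred1 and Phlda1 were higher. The share of all genes that were lower was not computed. The genes were chosen with values of the shared VD3 pool known, so nothing is read from these directions. Spry4 had the lowest value, -0.39 ± 0.34, followed by Etv5 (-0.33 ± 0.35), Egr1 (-0.28 ± 0.36) and Fgf4 (-0.25 ± 0.35). Dusp4 was at -0.20 ± 0.37, Dusp6 at -0.17 ± 0.34 and Etv4 at -0.115 ± 0.49. Spred1 was the highest at 0.47 ± 0.33, above Phlda1 (0.33 ± 0.35) and Spry2 (0.20 ± 0.34). No gene of the 10 was 1.5-fold higher, against 13.7% of 10717 genes, or 1.5-fold lower, against 8.23%. None was 2-fold higher (4.67%) or had bounds apart in that direction (0.858%). Spry4 and Spred1 were the 2 whose difference was larger than the SD, a share that was 34.5% among all genes. The median of the 10 was -0.18 and that of all genes 0.02, and for 8 of the 10 a difference between the treated pools was within its SD.

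VD3 differences from untreated went along with transcript composition. Over 8797 coding genes of the same pools, a description across genes and not across replicates, the VD3 difference had a Spearman correlation of 0.57 with GC content and -0.41 with length, both of the longest coding transcript. The same correlations for both agents against untreated were 0.41 and -0.57, and between the treated pools -0.24 and -0.27, so the sign for GC content was the other way there. Spred1 had the lowest GC content of the 10, 41.22%, and the longest transcript, 6016 bases, against medians of 50.2% and 3055 bases. The 544 genes in its bin of GC content and length had a median difference of -1.09, so Spred1 at -0.71 was 0.38 above genes of like composition. Its direction turns with this centring, and it does so with both agents against untreated too. Phlda1, Etv4, Egr1 and Dusp4 had the highest GC content, 58.9%, 58.71%, 57.31% and 55.99%, and their bins had medians of 0.56, 0.56, 0.42 and 0.53.

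Set against their bins, 9 of the 10 genes were above the bin median in VD3 against untreated and none reached 1.5-fold. Phlda1 was 0.46 above its bin, Egr1 0.42, Dusp6 and Etv5 0.33 each, Dusp4 0.26, Spry4 0.14, Etv4 0.13 and Spry2 0.06, while Fgf4 was at -0.07. With both agents against untreated, 9 of 10 were above too, and Phlda1, at 0.82, and Spred1, at 0.51, were the furthest, with Fgf4 at -0.12. Between the treated pools 5 of 10 were above, from Phlda1 at 0.35 to Spry4 at -0.11. The share of all genes past 1.5-fold of their bins was not computed, so nothing is read from these counts. Whether composition sets part of any of these differences was not tested. By estimated count without scaling the log2 differences for VD3 against untreated were close to those by FPKM for Fgf4 (0.39), Dusp6 (0.77), Spry2 (0.38), Spry4 (0.52), Spred1 (-0.72) and Phlda1 (1.02). They were larger for Etv4 (0.81), Dusp4 (1.04) and Egr1 (1.01), and smaller for Etv5 (0.55).

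**Figure D3:**
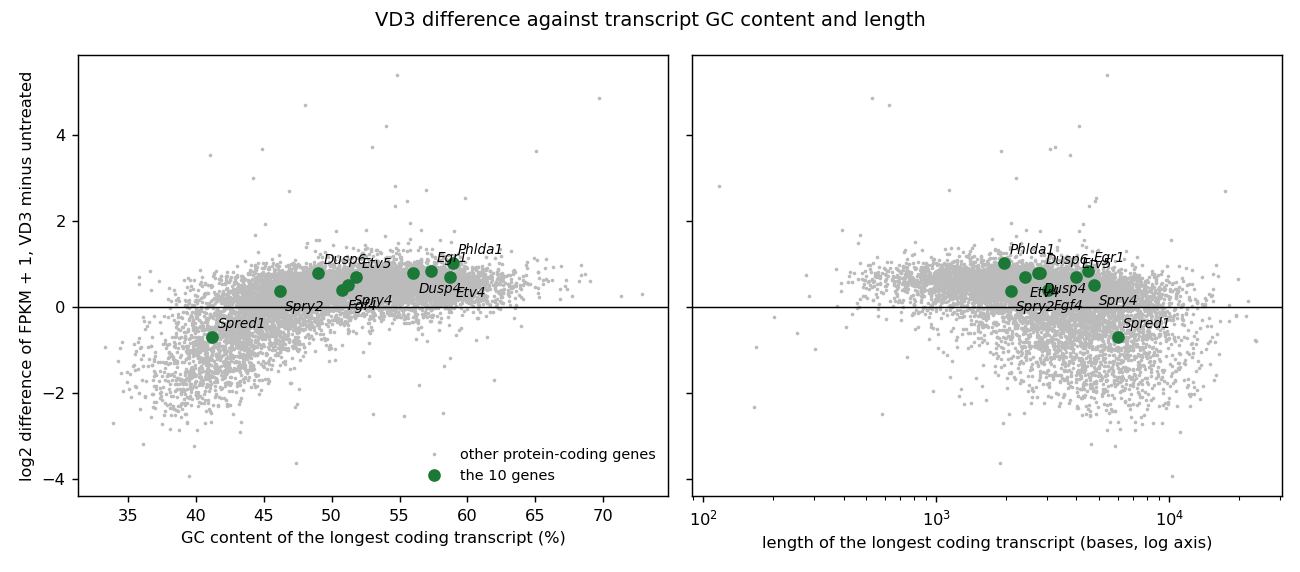
Log2 difference of FPKM + 1 for VD3 minus untreated against GC content (left) and length (right, log axis) of the longest coding transcript, 1 point per protein-coding gene that reached 5 FPKM in either pool. Genes of low GC content lie low, and Spred1 (41.22% GC, 6016 bases) lies among them while the other 9 lie above 0.

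Of the other FGF ligand genes, 20 of 21 had values of their own and 6 averaged at least 1 FPKM over the pools. Fgf17, of the FGF8 subfamily, was at 21.154 FPKM with VD3 plus MM-401 (bounds 13.75 to 28.559), 18.322 with VD3 (12.066 to 24.578) and 7.21 in untreated cells (4.4537 to 9.9663). Both treated pools thus had bounds above the untreated ones, and the counts, 2226.2, 1928.7 and 757.17, had the same order. Its log2 differences from untreated were 1.43 with both agents and 1.23 with VD3. Against its GC and length bin, Fgf17 was at 0.59 with both agents and 0.66 with VD3. Fgf13, which encodes an intracellular FGF homologue, was at 2.4636 (1.1369 to 3.7902), 3.5724 (2.0036 to 5.1412) and 7.59 FPKM (4.4305 to 10.75). Its bounds were apart, and lower, with both agents against untreated, at a log2 difference of -1.31. However, the counts of Fgf13, 357.79, 492.42 and 328.39, did not follow that order. Fgf4 was above both in every pool.

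The receptor list, with co-receptors and heparan sulfate enzymes, had 13 members of at least 5 FPKM. For VD3 against untreated, 2 were at least 1.5-fold higher and 0 lower, against 28.3% and 13.9% of all genes, and the list median was 0.33, next to 0.36 for all genes. Fgfr1, the main FGF receptor of these cells, was at 54.875 FPKM with VD3 plus MM-401, 84.427 with VD3 and 67.517 in untreated cells, with bounds that overlapped. Ext1, which elongates heparan sulfate, was at 35.995, 48.853 and 24.54 FPKM, and Gpc4, a glypican co-receptor, at 33.543, 29.618 and 16.887. Sdc4, a syndecan, was at 57.204, 57.061 and 51.206 and Sdc2 at 10.458, 6.2186 and 7.5057. Ndst1, a heparan sulfate sulfotransferase, was at 5.8597, 9.4392 and 6.6265. With both agents against untreated, 2 were higher and 0 lower, against 31.4% and 12.1% of all genes. Against VD3, 2 were higher and 2 lower, against 13.7% and 8.23%. Fgfr3 was at 15.22, 4.8789 and 7.31 FPKM, while its counts, 300.41, 305.08 and 257.63, were nearly level, so the FPKM difference of Fgfr3 has no counterpart in its counts. Its values are sums over 3 loci. It was among the 2 higher genes both against untreated and against VD3 in the comparisons with MM-401.

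The RAS-ERK cascade list runs from receptor adaptors to ERK. All 21 members reached 5 FPKM for VD3 against untreated, with 6 at least 1.5-fold higher and 4 lower, against 28.3% and 13.9% of all genes. The share higher was thus near the background, and the list median was 0.20, next to 0.36 for all genes. Among those higher was Shc1, an adaptor, at 62.804 FPKM with both agents, 94.929 with VD3 and 52.705 in untreated cells. Among those lower was Rasa1, a RAS GTPase activating protein, at 10.111, 8.627 and 34.474 FPKM. The GC content of Rasa1 is 41.9%, and against its bin it was at -1.20. Against their bins, 2 genes of the cascade were 1.5-fold higher and 1 lower, a count with no share over all genes to set beside it.

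With both agents against untreated, 4 of 20 genes of the cascade were higher and 5 lower, against 31.4% and 12.1% of all genes, with a median of 0.03 next to 0.27 for all genes. Hras was at 189.16, 131.99 and 76.257 FPKM. Map2k2, which encodes MEK2, was at 138.66 FPKM with both agents (90.249 to 187.08), 109.88 with VD3 and 67.183 in untreated cells (44.77 to 89.596), with bounds apart between the first and the last. Sos2, a RAS exchange factor, was at 2.8914, 7.5388 and 8.8727 FPKM, with counts of 663.55, 695.33 and 1315.5. Against VD3, 0 of 21 were higher and 3 lower, against 13.7% and 8.23% of all genes, with a median of -0.06 next to 0.02. Sos2 was among the 3 lower, although its counts with both agents and with VD3 were nearly level. Ptpn11, the phosphatase SHP2, was at 27.888 and 46.764 FPKM with both agents and with VD3, and Nf1, neurofibromin, at 8.1137 and 5.5798. Nras was at 153.12, 154.47 and 147.52.

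Other feedback inhibitors and targets of ERK formed a list of 15, of which Myc and Ccnd1 are also known as Wnt targets. Of 10 with at least 5 FPKM, 5 were at least 1.5-fold higher with VD3 than in untreated cells and 0 lower, against 28.3% and 13.9% of all genes. The list median was 0.61, next to 0.36 for all genes. Trib1, a pseudokinase gene, was at 15.637 FPKM with both agents, 21.241 with VD3 (14.228 to 28.254) and 9.9819 in untreated cells (6.619 to 13.345), with bounds apart between VD3 and untreated. Myc was at 62.602, 87.029 and 43.58 FPKM and Ccnd1 at 93.116, 132.75 and 71.129. Dusp5, a nuclear ERK phosphatase, was at 24.182, 25.78 and 16.022. Dusp9, an ERK phosphatase abundant in embryonic stem cells, was at 153.01, 191.22 and 167.72 FPKM, and its ratio to Dusp6 was 1.15, 1.28 and 1.96. Dusp7 (13.495, 14.739 and 13.556), Spred2 (32.855, 38.534 and 35.278) and Il17rd (6.8631, 11.037 and 8.0229), an FGF receptor antagonist, were within 1.5-fold of untreated in both treated pools.

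With both agents against untreated, 1 of these 10 was higher and 0 lower, against 31.4% and 12.1% of all genes, with a median of 0.30 next to 0.27 for all genes. Against VD3, 0 were higher and 1, Il17rd, lower, against 13.7% and 8.23% of all genes, with a median of -0.33 next to 0.02, and none of the 10 was above the median gene. Against GC and length bins the median was 0.14 for VD3 against untreated, -0.07 with both agents against untreated and -0.19 between the treated pools. None reached 1.5-fold against its bin, and no share over all genes was computed for that. Spred2 and Dusp9, related to Spred1 and Dusp6, had VD3 differences of 0.12 and 0.19, below the median gene.

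**Figure D4:**
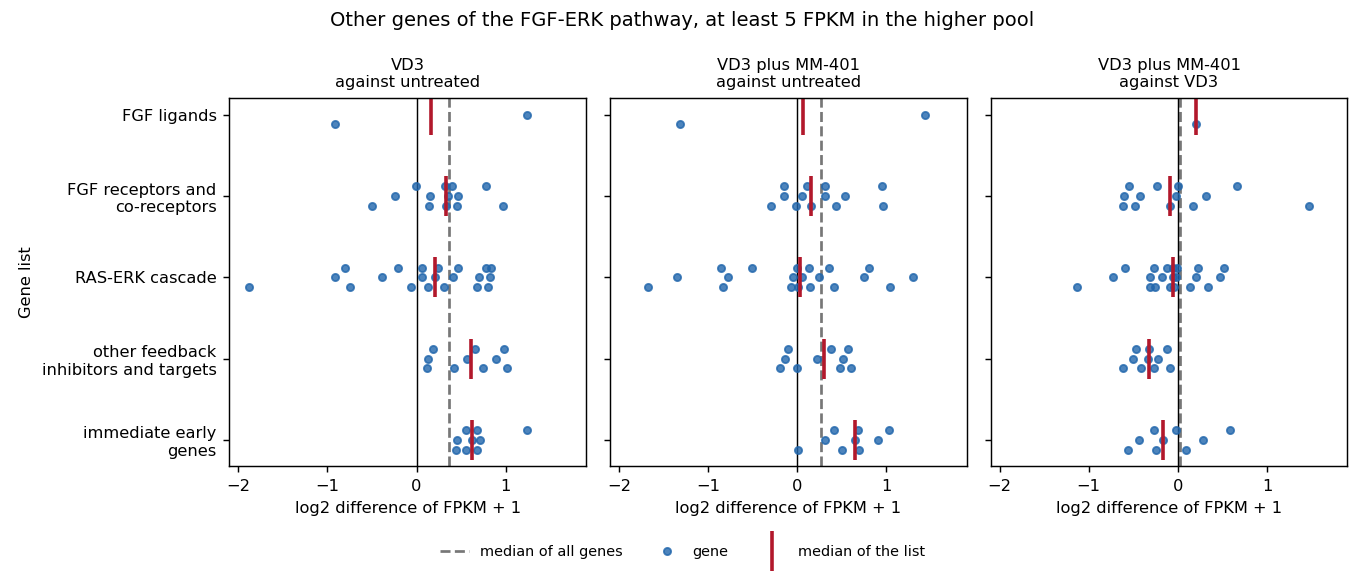
Log2 difference of FPKM + 1 for genes of the FGF-ERK lists that reached 5 FPKM in the higher pool, 1 point per gene and a vertical bar at the list median, in the 3 comparisons. The dashed line is the median of all genes, and the cascade genes spread to both sides of it, from Rasa1 at -1.88 to Shc1 at 0.84 in the first panel.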

How the data were processed

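RNA was sequenced from 6 TruSeq libraries, 2 per group. Tools named in the authors' work, per the submitters' processing notes, are Cufflinks 2.2.1, TopHat2 2.1.1 and SAMtools 1.5, and the build is mm10; their settings were not stated. The authors deposited FPKM with confidence bounds for 62490 loci and, in a second table, the estimated count of each locus with its variance, 1 pooled column per group. The deposited estimated counts already carry the scaling between pools, since the median ratio of FPKM to count was 1 between either treated pool and untreated; a pool's total is therefore not its raw depth.

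The 14 loci without a valid status were left out and loci of 1 gene summed; a locus with several names went to its single protein-coding gene. Differences are log2 ratios of FPKM + 1 (pandas 2.3.3, NumPy 2.4.6). SDs come from the authors' count variance and do not cover spread between libraries. They can also be narrow where the FPKM bounds are wide. With VD3, Etv5 and Fgf4 had count SDs of 16.96% and 16.95% of the count. Their bounds were 34.325 to 181.9 around 108.11 FPKM and 91.54 to 186.01 around 138.78 FPKM. Genes entered counts where the higher pool reached 5 FPKM, with thresholds of 1.5-fold and 2-fold. GC content and length are those of the longest coding transcript in GENCODE vM21, in 5 by 5 bins. The code was tested on simulated data. The alternatives were another pseudocount, filters, thresholds, counts and centrings. The members and lists were chosen with earlier results of these data known. All 10 members are named, and of each other list the highest genes, those with the largest differences and those with bounds apart. Some genes that this rule names are not reported here. Strand use is not stated, so overlapping genes cannot be told apart.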

Additional observations from a re-analysis of the deposited data

How the results depend on the processing

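No paired analysis was possible because each deposited column pools both libraries of a group, and for the same reason no replicate could be left out. Over the 10 genes, 3 comparisons and 5 alternatives of value, 128 of 150 values moved by less than their SD. Of 50 values each, these were 33 for VD3 against untreated and 45 for both agents against untreated. Part of this count was fixed in advance, so it is no measure of robustness. Centring on the median gene subtracts the same amount from all 10 genes. That amount was 0.36 for VD3 against untreated, 0.27 for both agents against untreated and 0.02 between the treated pools. The last 2 amounts are below the lowest SD, 0.333, and could move no value by its SD. Of 10 changes of sign, 1 was of a gene past 1.5-fold: Spred1 in VD3 against untreated, at 0.38 when centred on its GC and length bin. Centring on bins also changed the sign of Fgf4 (-0.07) there, of Fgf4 (-0.12) and Spred1 (0.51) with both agents against untreated, and of Dusp6 (0.02) and Dusp4 (0.0017) between the treated pools. Fgf4 and Spry4 with both agents against untreated changed sign by CPM, to -0.12 and -0.11, and centred on the median gene, to -0.12 and -0.15. For VD3 against untreated, the median of the 10 genes was 0.33 centred on the median gene and 0.29 centred on GC and length bins. The number at least 1.5-fold higher was 3 by CPM of the counts, 1 centred on the median gene, 0 centred on bins and 1 with a threshold of 2, and the number lower was 0 centred on bins and 0 with a threshold of 2. With both agents against untreated, the number higher was 1 by CPM, under either centring and with a threshold of 2. It was 4 by counts without scaling, an alternative chosen after the tables were opened. Dividing by totals adds a shift, since the counts are already scaled and the untreated total is the lowest. Between the treated pools, all 50 values moved by less than their SD, the 2 changes of sign included. For centring on the median gene this outcome was fixed in advance. The spread between libraries is unknown because of the pooling. Each of the 10 genes has at least 670.16 counts in every pool, and the SD of a difference was 0.333 to 0.487.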

Other observations

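Immediate early genes other than Egr1, which serum, handling and several kinases induce as well as ERK, were also placed. Of 15, 9 had at least 5 FPKM, and for VD3 against untreated 5 were at least 1.5-fold higher and 0 lower, against 28.3% and 13.9% of all genes, with a median of 0.63, next to 0.36 for all genes, and 9 of 9 above the median gene. Atf3 was at 14.073 FPKM with VD3 plus MM-401, 21.239 with VD3 and 8.3937 in untreated cells, Junb at 27.471, 28.004 and 16.66, Ier2 at 143.52, 117.68 and 75.871, and Btg2 at 36.742, 43.899 and 29.473. Bounds overlapped for all of them. For both agents against untreated, 5 of 9 were higher and 0 lower, against 31.4% and 12.1% of all genes, with a median of 0.65, next to 0.27, and Ier3 (20.193, 13.179 and 9.3694 FPKM) had the largest difference, 1.03. Zfp36, at 10.28, 14.25 and 10.232, had the smallest, 0.01. Between the treated pools 0 were higher and 0 lower, against 13.7% and 8.23% of all genes. Centred on GC and length bins, the list medians were 0.09, 0.11 and -0.03 for VD3 against untreated, both agents against untreated and both agents against VD3.

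Markers of extraembryonic lineages did not share a direction. The 7 primitive endoderm markers summed to 8.132 FPKM with both agents, 10.48 with VD3 and 9.101 in untreated cells, and 0 reached 5 FPKM. Sox7 was at 2.1439 FPKM with both agents (1.2519 to 3.0359), 2.2943 with VD3 (1.366 to 3.2226) and 0.78045 in untreated cells (0.3774 to 1.1835), so the bounds of both treated pools lay above the untreated ones. Dab2 (3.5866, 4.3001 and 4.4279 FPKM), Gata6 (0.34437, 0.58821 and 1.0084) and Pdgfra (0.15344, 0.44883 and 0.55944) were lower in both treated pools than in untreated cells, with bounds that overlapped. Gata4 was at 1.4298, 2.4384 and 2.0141 FPKM, and Sox17 and Foxa2 were under 1 FPKM in every pool. The 6 trophoblast markers with their own values summed to 18.16, 28.78 and 23.28 FPKM. Krt7 was at 8.6661, 18.45 and 12.113 FPKM and Hand1 at 2.6134, 3.666 and 7.1011, both lower with both agents than in untreated cells. Cdx2 (2.2018, 3.2614 and 1.4207), Eomes (3.5652, 2.8163 and 2.1328) and Tfap2a (1.0697, 0.45431 and 0.48491) were higher with both agents than in untreated cells, and Elf5 was under 1 FPKM in every pool. All of these trophoblast bounds overlapped between pools. Gata6, Pdgfra, Sox17, Foxa2, Cdx2, Eomes, Elf5 and Tfap2a were named after their values were seen. Whether any of these levels comes from few cells with high expression cannot be told from pooled RNA.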
